A study of Meleagris gallopavo with 3 samples.

Results

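The genes of the cytosolic ribosomal proteins were followed across 3 cultures of turkey satellite cells. Members were all gene symbols made of RPL or RPS and a number, with a closing letter or paralog mark where there is one, together with RPSA, RPLP0, RPLP1 and RPLP2. This gave 64 of the 23976 genes in the table, 41 of the large subunit and 23 of the small subunit. Of 79 standard names of ribosomal protein genes, 60 stood in the table and 59 of these were members. The other 5 members carry the names of paralogs. The 19 standard names without a match by symbol were not analysed here, except RPL36A, which was read under another identifier.

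Satellite cells, the stem cells of skeletal muscle, were taken from the breast muscle of turkeys that were 1 day old and grown for 2 weeks before they were divided. The Differentiating culture was held on plates in medium with 4% horse serum and formed myotubes, the Adherent culture stayed undifferentiated on plates in growth medium with 15% chicken serum, and the Suspension culture was detached with EDTA and kept floating in rotated flasks in that growth medium for 3 months. The labels name no drug or other treatment for any group. RNA of 3 experiments was pooled for each culture and sequenced as 1 library, so no spread between cultures is known, no test was run, and intervals of 95% cover counting error only.

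The ribosome is built from a large and a small subunit, each a core of ribosomal RNA covered by proteins that are mostly present in a single copy. Their mRNAs are among the most abundant of growing cells and carry a 5′ terminal oligopyrimidine tract, through which mTOR signalling sets how much of each is translated. In skeletal muscle, the number of ribosomes is known to bear on the capacity for protein synthesis and growth.

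The libraries headed Differentiating, Adherent and Suspension held 22816125, 17444865 and 23844835 exon reads, of which 96.1%, 95.5% and 95.5% were unique to 1 gene. Intron reads were 12.0%, 24.3% and 15.2% of the gene reads in the same order. Of the deposited fold changes, the one named for Suspension against Differentiating equalled, in 100% of 12207 genes, the ratio of the columns Adherent and Differentiating, and the one named for Adherent against Differentiating equalled, in 100% of 12154 genes, the ratio of the columns Suspension and Differentiating. The published text also uses the names Adherent and Suspension the other way round from the columns. The libraries are called here by the headings of their counts, and which of them holds which culture cannot be told apart from the files. Exchanging both names would turn every direction between them.

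The label satellite cells was checked against marker genes, and in bulk RNA fewer cells of a type and less RNA per cell cannot be told apart. Markers of satellite cells and myoblasts summed to 1040.0, 3279 and 3636 reads per 1000000 exon reads (CPM) in the libraries headed Differentiating, Adherent and Suspension. The 6 myotube markers summed to 3398, 9006 and 8547 CPM, lowest in the library headed Differentiating, and the 8 fibroblast markers to 58912, 9251 and 17308 CPM, highest there. COL1A2, at 32780, 3977 and 10967 CPM, and COL3A1, at 21111, 3475 and 5696 CPM, gave most of the fibroblast sums. All 8 were highest in Differentiating. In Adherent over Suspension they were split, with 4 (50%) at least 2-fold higher and 3 (37.5%) lower, against 20.0% and 21.6% of all genes. DES, a gene of the muscle cytoskeleton, gave the largest part of the satellite cell and myoblast sum in Differentiating and Suspension, at 940.3, 1064 and 2781 CPM. PAX7, which defines satellite cells, was highest in Suspension, at 1.10, 4.93 and 24.2 CPM. MYF5, MYOD1 and MEGF10 were highest in Adherent, MYF5 at 1.97, 263 and 29.7 CPM, MYOD1 at 93.8, 1522 and 768 CPM and MEGF10 at 2.85, 426 and 33.2 CPM, so the 5 markers of the list do not share an order. Of the myotube markers, ACTA1 and TNNC2 were highest in Adherent and TNNT3, TTN, NEB and ACTN2 in Suspension. ACTA1 was not lowest in Differentiating, at 1756, 4739 and 1691 CPM. In Differentiating over Suspension 5 of the 6 (83.3%) were at least 2-fold lower, against 14.5% of all genes. In Differentiating over Adherent it was again 5 (83.3%), against 22.7%. The myotube markers thus go against the name of the library headed Differentiating, except that ACTA1 was nearly level between Differentiating and Suspension.

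Ribosomal protein transcripts took the largest share of reads in the library headed Adherent and the smallest in the library headed Suspension. Together the 64 genes held 4.33% of exon reads in the library headed Differentiating (exact Clopper-Pearson interval 4.32 to 4.34%), 6.27% in the library headed Adherent (6.25 to 6.28%) and 2.42% in the library headed Suspension (2.41 to 2.43%). The summed level was thus 1.79-fold higher in Differentiating than in Suspension, 2.59-fold higher in Adherent than in Suspension, and in Differentiating 0.691 of that in Adherent.

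Both subunits followed the same order. In the libraries headed Differentiating, Adherent and Suspension, large subunit genes held 2.76%, 4.15% and 1.53% of exon reads and small subunit genes 1.57%, 2.11% and 0.896%. Reads on large subunit genes were 1.76, 1.96 and 1.70 times those on small subunit genes in the same order. The fold of the sums in Adherent over Suspension was 2.72 (2.71 to 2.73) for the large subunit and 2.36 (2.35 to 2.37) for the small subunit, so the sums moved further apart there than counting error. The medians over single genes, given below with the comparisons, lay closer together.

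**Figure D1:**
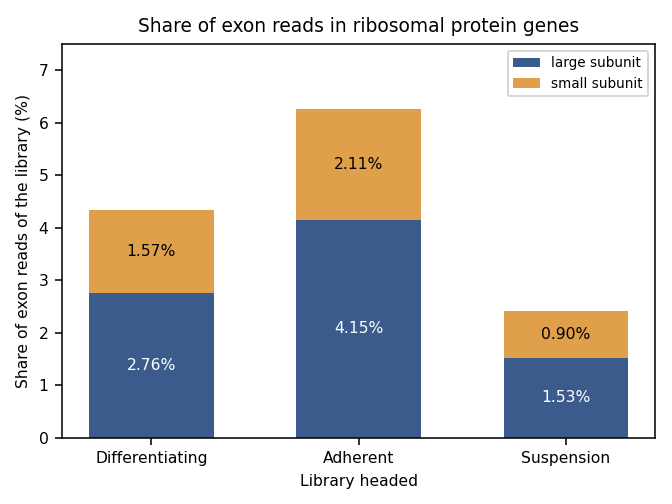
Share of exon reads (%) on ribosomal protein genes in each library, with the large subunit (blue, 41 genes) below the small subunit (orange, 23 genes). The bars reach 4.33%, 6.27% and 2.42% in the libraries headed Differentiating, Adherent and Suspension.

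All 64 members had reads in every library, and 63 reached at least 5 CPM in at least 1 library, the minimum that 11022 genes of the table passed. The exception was RPL3L, the paralog of RPL3 known from striated muscle of mammals. Among the 500 most abundant genes of the libraries headed Differentiating, Adherent and Suspension there were 55, 57 and 26 members. For 62 members at least 99.9% of the exon reads were unique in every library. For RPS3A, a small subunit protein, 89.9%, 91.6% and 90.0% were unique, so its level holds some reads shared with another gene.

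**Figure D2:**
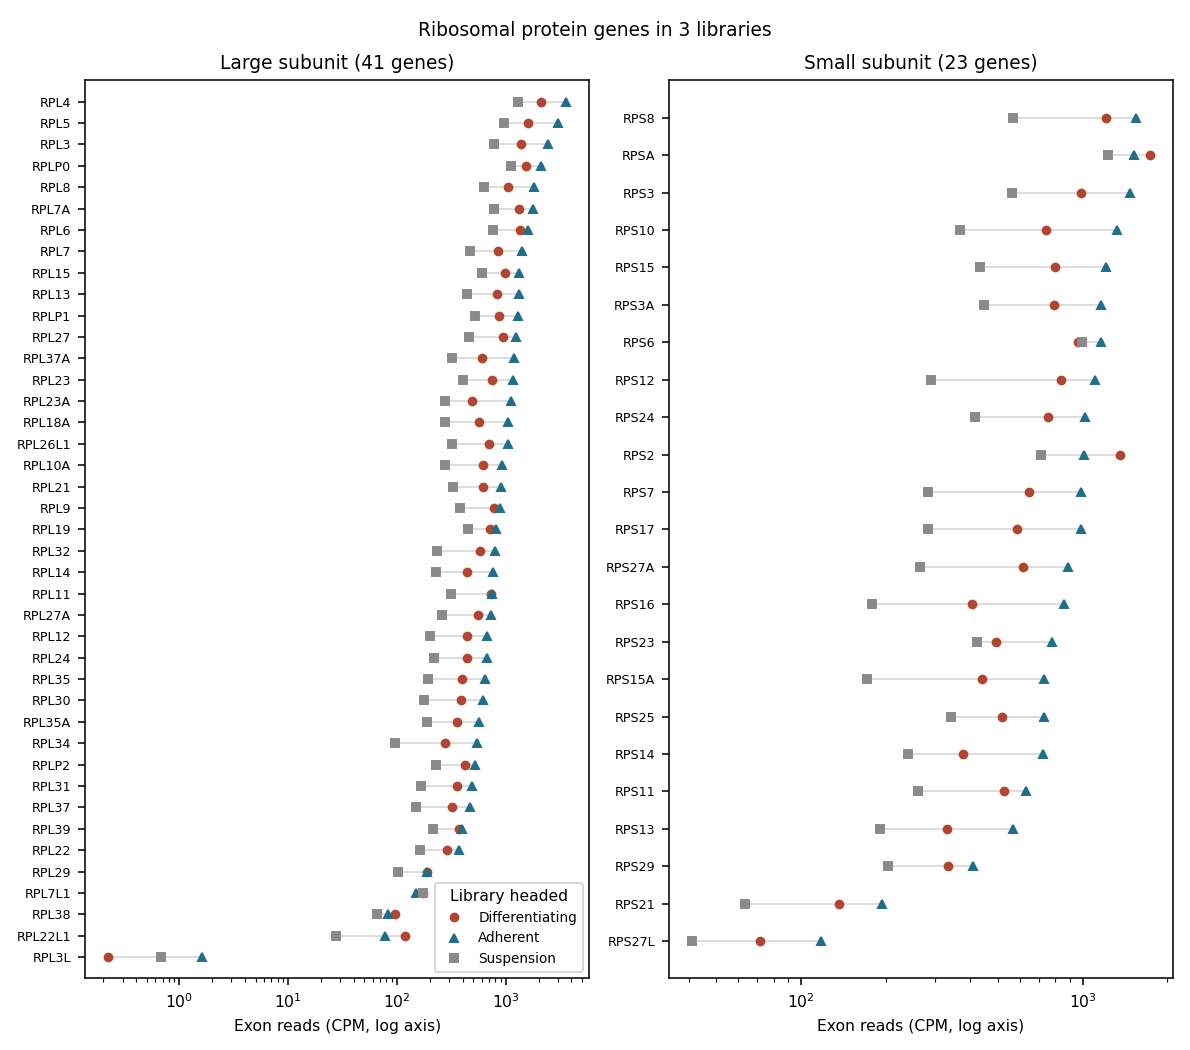
Exon reads (CPM, log axis) of the 64 ribosomal protein genes in the libraries headed Differentiating (circles), Adherent (triangles) and Suspension (squares), sorted by the level in Adherent. In most rows Suspension lies lowest and Adherent highest, and RPL3L stands alone below 2 CPM.

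In the library headed Differentiating against the library headed Suspension, 62 of the 63 members that passed the minimum were higher. Of all genes with a ratio, 4105 of 10929 were higher. A difference was counted from 2-fold on, a log2 ratio of CPM of at least 1. By this limit 26 members (41.3%) were higher and 0 lower, where 9.16% of the 10929 genes with a ratio were higher and 14.5% lower. The median log2 ratio was 0.91 over the members and −0.18 over all genes. Large subunit genes had a median of 0.91 with 16 of 40 past the limit, and small subunit genes a median of 0.88 with 10 of 23. With TMM scaling the count of higher members was 39 and with median-of-ratios scaling 42.

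The members lay close to each other. Their log2 ratios in Differentiating over Suspension had an SD across genes of 0.33, against 1.21 over all genes, and ran between −0.05 and 2.10. The highest were RPL22L1, RPS12, RPL34 and RPS15A, and the lowest RPS6, RPL7L1, RPS23 and RPLP0.

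In the library headed Adherent against the library headed Suspension, 62 of 63 members were again higher, and by more. Of all genes with a ratio, 4891 of 11020 were higher. Past the 2-fold limit were 53 members (84.1%) above and 0 below, where 20.0% of 11020 genes lay above and 21.6% below. The median log2 ratio of the members was 1.52, against −0.15 over all genes. It was 1.52 over the large subunit, with 34 of 40 past the limit, and 1.49 over the small subunit, with 19 of 23. The SD across members was 0.49 on the log2 scale, and the range was −0.20 to 2.51.

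In the library headed Differentiating against the library headed Adherent, 57 of 63 members were lower, most of them by less than 2-fold. The other 6 members were higher, as were 5297 of 11022 genes. The median log2 ratio was −0.56, against −0.05 over all genes, with −0.57 over the large subunit and −0.56 over the small subunit. No member was at least 2-fold higher, where 18.3% of 11022 genes were. At least 2-fold lower were 2 members, RPL23A and RPS16, which is 3.17% of members where 22.7% of all genes were lower. That count was 1 with TMM or median-of-ratios scaling and 0 with gene reads. The 3 comparisons share their libraries, so their values are not independent of each other.

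**Figure D3:**
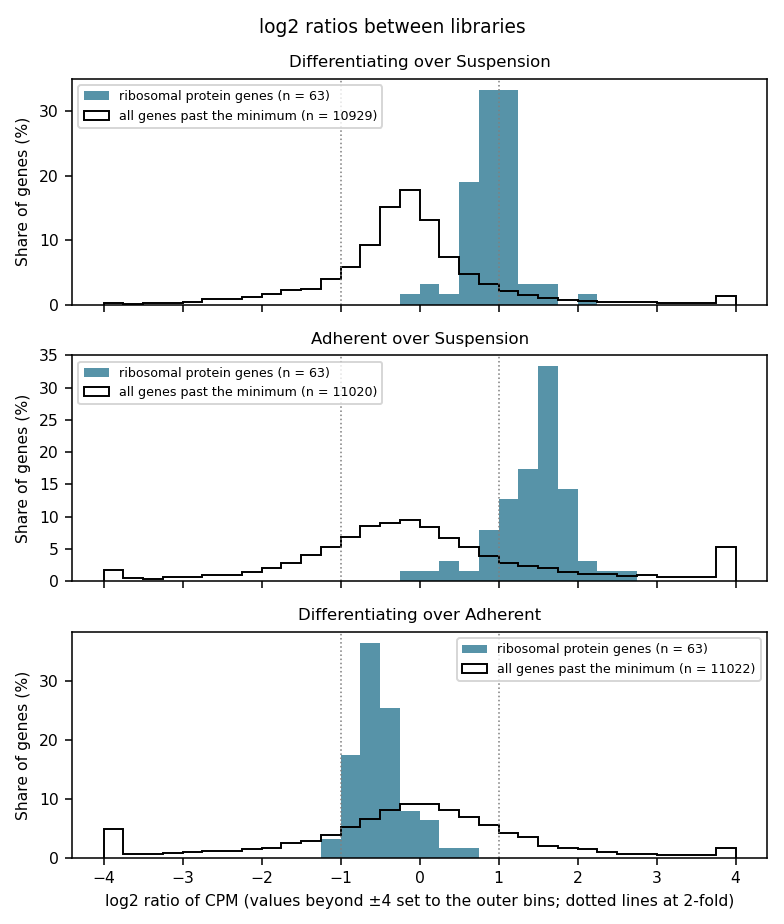
Share of genes (%) by log2 ratio of CPM for the 63 ribosomal protein genes (filled) and for all genes past the minimum (outline) in the 3 comparisons, with dotted lines at 2-fold. The members form a narrow peak around 0.91, 1.52 and −0.56, while the genes as a whole spread widely around −0.18, −0.15 and −0.05.

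The order Adherent over Differentiating over Suspension held in 56 of 63 members (88.9%) and in 15.1% of all genes. In 55 of these 56 the counting intervals of neighbouring levels did not overlap. RPL11 was the exception, with overlapping intervals in Differentiating and Adherent. The same count was not made over all genes, and counting intervals are narrow for genes with this many reads. With TMM scaling RPL11, RPL39, RPL19 and RPL9 were higher in Differentiating than in Adherent. A further 5 members, RPL22L1, RPL29, RPL38, RPS2 and RPSA, were highest in Differentiating and lowest in Suspension, an order that 5.89% of all genes had. Among them RPL29 was nearly level between Differentiating and Adherent, at 189.5 and 187.4 CPM with overlapping intervals. RPS6 was highest in Adherent and lowest in Differentiating, and RPL7L1 was lowest in Adherent.

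The ribosomal stalk, which recruits the elongation factors to the large subunit, is made of RPLP0 and pairs of RPLP1 and RPLP2, with RPL12 at its base. RPLP0 was at 1536 CPM in Differentiating, 2108 CPM in Adherent and 1107 CPM in Suspension. Its log2 ratio was 0.47 (0.45 to 0.50) in Differentiating over Suspension, among the 4 lowest of the members, and 0.93 (0.91 to 0.95) in Adherent over Suspension. RPLP0 is often used as a reference gene in quantitative PCR, and here its level differed between all 3 libraries beyond counting error.

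The other stalk genes stood further above Suspension than RPLP0 did. RPLP1 was at 867, 1286 and 522 CPM in Differentiating, Adherent and Suspension, RPLP2 at 425, 527 and 227 CPM, and RPL12 at 440.4, 676 and 199.8 CPM. Their log2 ratios in Adherent over Suspension were 1.30, 1.21 and 1.76, all higher than that of RPLP0. None of these 4 genes departed from the order Adherent, Differentiating, Suspension.

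RPL5 and RPL11 bind 5S ribosomal RNA to form a particle of the large subunit, which when free can hold back MDM2 and so raise p53 in mammals. RPL5 was at 1611 CPM in Differentiating, 2992 CPM in Adherent and 958 CPM in Suspension, and RPL11 at 731, 751 and 313 CPM. In Differentiating over Adherent the log2 ratio was −0.89 (−0.91 to −0.87) for RPL5 and −0.04 (−0.07 to −0.01) for RPL11. For RPL11 it was 0.15 with TMM and 0.12 with median-of-ratios scaling, so its sign depends on the scaling. The partners of this particle therefore did not differ alike between these libraries, while both were lowest in Suspension.

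Proteins at the mouth of the exit tunnel, where the growing chain leaves the large subunit, include RPL23A, RPL35, RPL31 and RPL19. RPL23A, a docking site of the signal recognition particle, was at 488, 1115 and 278 CPM in Differentiating, Adherent and Suspension. Its log2 ratio of −1.19 (−1.23 to −1.16) in Differentiating over Adherent was the lowest of all 63 members. RPL35 was at 397, 649 and 193 CPM and RPL31 at 354, 493 and 165 CPM. RPL19 was at 722, 821 and 448 CPM, with a log2 ratio of 0.87 in Adherent over Suspension, so it stayed below the limit that RPL23A, RPL35 and RPL31 passed.

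RPL4, which reaches into the exit tunnel, had 2104, 3606 and 1304 CPM in Differentiating, Adherent and Suspension. RPL39, another tunnel protein, had 375, 399 and 216 CPM, and its log2 ratio in Differentiating over Adherent was −0.09, or 0.09 with TMM and 0.07 with median-of-ratios scaling. RPL3, which lies near the peptidyl transferase centre, had 1384, 2421 and 785 CPM. These genes kept the common order but differed in how far Adherent stood above Differentiating.

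The largest log2 ratio of Adherent over Suspension belonged to RPL34, a large subunit protein. RPL34 was at 275, 545 and 95.6 CPM in Differentiating, Adherent and Suspension, with log2 ratios of 1.52 (1.45 to 1.59) in Differentiating over Suspension and 2.51 (2.45 to 2.58) in Adherent over Suspension. RPL37A, also of the large subunit, was at 605, 1184 and 317 CPM, and its log2 ratio of −0.97 was among the 4 lowest in Differentiating over Adherent. RPL38, whose loss in mice alters the translation of Hox mRNAs, was at 95.2, 81.9 and 64.9 CPM. RPL38 was among the members that differed least between Adherent and Suspension, with a log2 ratio of 0.34 (0.23 to 0.44).

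In the small subunit, RPS16, RPS15A and RPS12 had the highest log2 ratios of Adherent over Suspension. RPS16, whose tail reaches towards the peptidyl site, was at 404, 859 and 179.5 CPM in Differentiating, Adherent and Suspension, a log2 ratio of 2.26 (2.21 to 2.31) in Adherent over Suspension. RPS15A was at 441, 731 and 171 CPM. RPS12 was at 841, 1103 and 289 CPM, with a log2 ratio of 1.54 in Differentiating over Suspension. RPS16 and RPS12 differed in where Differentiating lay, since in Differentiating over Adherent the log2 ratio was −1.09 for RPS16 and −0.39 for RPS12.

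RPS6, the small subunit protein that S6 kinase phosphorylates downstream of mTOR, was nearly level. It had 962 CPM in Differentiating, 1163 CPM in Adherent and 996 CPM in Suspension. RPS6 had the only negative log2 ratio of the 63 members in Differentiating over Suspension, −0.05 (−0.08 to −0.02), and the second lowest in Adherent over Suspension, 0.22 (0.20 to 0.25). With TMM scaling the value in Differentiating over Suspension was 0.12 and with median-of-ratios scaling 0.14, so its sign depends on the scaling.

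RPS6 lies on the chromosome that the table calls W, as do RPS23 and RPL37. RPS23, which helps to hold the decoding centre, was at 493, 779 and 421 CPM in Differentiating, Adherent and Suspension, with log2 ratios of 0.23 (0.19 to 0.26) in Differentiating over Suspension and 0.89 (0.85 to 0.92) in Adherent over Suspension. RPL37, a large subunit protein, was at 323, 472 and 149 CPM, with a log2 ratio of 1.66 in Adherent over Suspension. So 2 of the 3 members on this chromosome were among the 4 lowest in Differentiating over Suspension. RPL37 was not, with a log2 ratio of 1.12 there against a median of 0.91 over the members. No source used here gives the sex of the birds behind each library. The 64 members lie on 28 chromosomes.

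RPSA and RPS2 departed from the common order. RPSA, which was first described as a laminin receptor and sits at the exit of the mRNA channel, had 1740.0 CPM in Differentiating, 1526 CPM in Adherent and 1227 CPM in Suspension. RPS2, at the entry of that channel, had 1359, 1009.6 and 711 CPM. In Differentiating over Adherent their log2 ratios were 0.19 (0.17 to 0.21) and 0.43 (0.40 to 0.45), so both were higher in Differentiating beyond counting error. RPS3, a neighbour of RPS2 at the channel entry, kept the common order with 989, 1469 and 563 CPM.

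RPS27A is made as a fusion of ubiquitin with a small subunit protein. RPS27A was at 615, 889.9 and 266 CPM in Differentiating, Adherent and Suspension. Its log2 ratio was 1.21 (1.17 to 1.25) in Differentiating over Suspension and 1.74 (1.70 to 1.79) in Adherent over Suspension, both past the limit. A gene that the RefSeq table names RPL36A, which has no member symbol, had 235, 269 and 148 CPM. It followed the order of the 56 members.

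Paralogs are second copies that can take the place of a ribosomal protein or have other roles. RPL22L1 and its main copy RPL22, which bind RNA also outside the ribosome, differed in their ratios. RPL22L1 was at 117 CPM in Differentiating, 77.6 CPM in Adherent and 27.3 CPM in Suspension, and RPL22 at 288, 374 and 164 CPM. The log2 ratio in Differentiating over Suspension was 2.10 (1.98 to 2.23) for RPL22L1, the highest of the members, and 0.82 (0.76 to 0.87) for RPL22. In Differentiating over Adherent it was 0.60 (0.50 to 0.69) for RPL22L1 and −0.37 (−0.42 to −0.32) for RPL22.

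RPL7L1, which in human cells is linked to the assembly of ribosomes, did not share the pattern of RPL7. RPL7L1 was at 175, 149.8 and 173 CPM in Differentiating, Adherent and Suspension, with log2 ratios of 0.02 (−0.04 to 0.08) in Differentiating over Suspension and −0.20 (−0.28 to −0.13) in Adherent over Suspension. RPL7 was at 848, 1424 and 464 CPM, and its log2 ratios were 0.87 and 1.62. RPL7L1 was the only one of the 63 members that was lower in Adherent than in Suspension.

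RPL26L1 and RPS27L kept the common order. RPL26L1 was at 703, 1043 and 319 CPM and RPS27L, which is a target of p53 in human cells, at 71.6, 118 and 41.0 CPM in Differentiating, Adherent and Suspension. RPL3L had 5, 28 and 16 reads, or 0.219, 1.61 and 0.671 CPM. Its log2 ratio of −2.87 in Differentiating over Adherent has a counting interval of −4.60 to −1.48, so its size is hardly known.

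Levels of different genes were compared per kilobase of exon. The median member was at 940.4 CPM per kb in Differentiating, 1411 CPM per kb in Adherent and 499.6 CPM per kb in Suspension, against 10.6, 11.5 and 12.1 CPM per kb for the median of all genes. In the top 10% of genes by this level were 63, 63 and 62 of the 63 members. The SD across members of log2 CPM per kb was 0.815, 0.948 and 0.865, against values between 2.23 and 2.55 over all genes, so these genes lay close together in level as well as in ratio.

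Averaged over the libraries, the members highest per length were RPLP1 with 1812 CPM per kb, RPL5 with 1810.2, RPS12 with 1744 and RPL27 with 1716. The lowest past the minimum were RPL7L1 with 108 CPM per kb, RPS27L with 149, RPL22L1 with 150.0 and RPL38 with 214. The median over small subunit genes was above that over large subunit genes in each library, at 994 against 899.9 CPM per kb in Differentiating, 1439 against 1338 in Adherent and 595 against 479 in Suspension.

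RPL22L1, RPL7L1 and RPL3L lay well below their main copies per length. RPL22L1 was at 238, 157 and 55.3 CPM per kb in Differentiating, Adherent and Suspension, and RPL22 at 564, 731 and 320.2 CPM per kb. RPL7L1 was at 114, 97.9 and 113 CPM per kb and RPL7 at 940, 1579 and 515 CPM per kb. RPL3L was at 0.158, 1.16 and 0.483 CPM per kb and RPL3 at 998, 1747 and 566 CPM per kb. RPL26L1, with 1181, 1753 and 536 CPM per kb, stood among the main copies. The gene symbols RPL26 and RPS27 were not matched in the table, so no main copy can be set beside RPL26L1 or RPS27L.

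**Figure D4:**
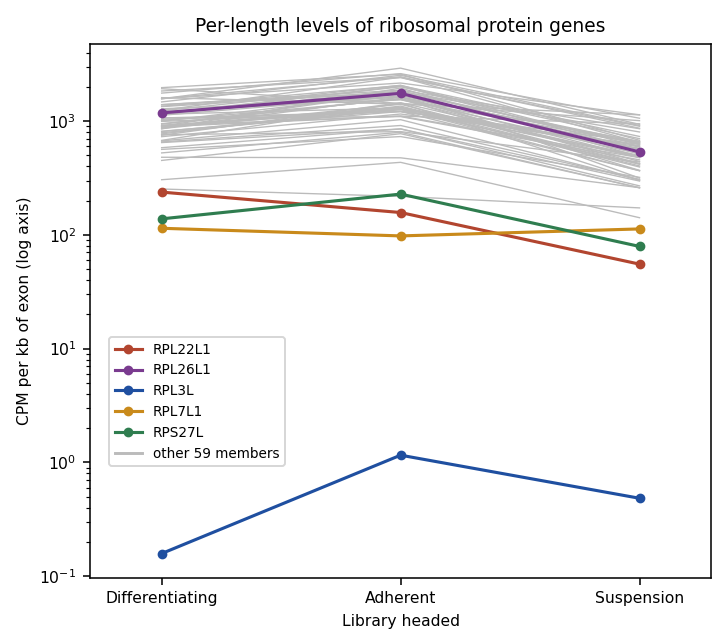
Level of the 64 members in CPM per kb of exon (log axis) in each library, with the 5 genes named as paralogs in colour and the other 59 in grey. RPL26L1 runs within the grey band, RPL22L1, RPS27L and RPL7L1 below most of it, and RPL3L far below at 0.158, 1.16 and 0.483 CPM per kb.

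Members have short exons in total, with a median of 626 bases. Across the 63 members, Pearson's r between log2 exon length and log2 ratio was −0.44 in Differentiating over Suspension, −0.33 in Adherent over Suspension and 0.05 in Differentiating over Adherent, with Spearman's rho of −0.36, −0.27 and 0.02. These are descriptions across genes of the same libraries. Members under and from the median length on had median log2 ratios of 0.94 and 0.85 in Differentiating over Suspension, and of 1.59 and 1.46 in Adherent over Suspension.

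Other genes with under 1000 bases of exon had median log2 ratios of −0.05, −0.24 and 0.13 in Differentiating over Suspension, Adherent over Suspension and Differentiating over Adherent. Another 316 genes had a mean CPM at or above the lower quartile of the members. Their medians were −0.11, −0.49 and 0.23. In Adherent over Suspension 70 of them (22.2%) lay above the 2-fold limit and 124 (39.2%) below, against 20.0% and 21.6% of all genes. The 27 of these that were also under 1000 bases had medians of 0.14, 0.86 and −0.42 in the same comparisons. In Adherent over Suspension 13 of the 27 (48.1%) lay above the 2-fold limit and 7 (25.9%) below. In Differentiating over Suspension it was 4 (14.8%) above and 7 (25.9%) below, against 9.16% and 14.5% of all genes. The members had medians of 0.91 in Differentiating over Suspension, 1.52 in Adherent over Suspension and −0.56 in Differentiating over Adherent. The part of exon length and abundance in these medians was not tested.

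Intron reads were a second readout of the same libraries. On the 63 members, introns gave 1.48%, 2.98% and 2.36% of gene reads in Differentiating, Adherent and Suspension, against 6.85%, 15.0% and 8.64% over all genes past the minimum. Reads across exon junctions were 66.7%, 66.9% and 65.6% of the members' exon reads, against 38.5%, 31.2% and 34.6% over all genes. Reads of the members thus came mostly from spliced mRNA in all 3 libraries.

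Set against the exon total of each library, the median log2 ratio of the members' intron reads was 0.14 in Differentiating over Suspension, 1.61 in Adherent over Suspension and −1.45 in Differentiating over Adherent. The same medians over all genes with at least 20 intron reads in the pair were −0.12, 1.24 and −1.40. Scaled to the intron total of each library, members had 0.54, 0.77 and −0.22, and all genes 0.27, 0.40 and −0.16. In Differentiating over Suspension the intron ratio lay below the exon ratio of 0.91 under either scaling, and in Adherent over Suspension its size depended on the scaling. The share of intron reads moves with the ratio between Adherent and Suspension, and its part in that ratio was not tested.

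Of the markers of other cell types, the sums of 3 lists were also highest in the library headed Adherent. The fibroblast sums given above were not, nor were the 4 pericyte and smooth muscle markers, at 1261, 638 and 528 CPM in Differentiating, Adherent and Suspension, or the 4 adipocyte markers, at 324, 315 and 269 CPM. In these lists MYH11, at 1.18, 196.5 and 1.01 CPM, and ADIPOQ, at 29.4, 210 and 8.09 CPM, were highest in Adherent. So was CSPG4, at 43.3, 44.7 and 22.4 CPM, and the others were highest in Differentiating. The 6 endothelial markers summed to 51.8, 449.8 and 24.2 CPM in Differentiating, Adherent and Suspension, with 1, 6 and 1 of them at 5 CPM or more. Of these only ERG went the other way, at 45.2, 17.4 and 18.5 CPM. The 7 leukocyte markers summed to 11.0, 123 and 13.0 CPM, with 0, 5 and 1 at that level and CD4 at 0 in all 3 libraries. The 5 Schwann cell markers summed to 21.5, 488 and 33.5 CPM, with 2, 4 and 2 at that level, and SOX10, which defines them, was at 0.351, 65.7 and 0.126 CPM. S100B alone of them was not highest in Adherent, with 9, 3 and 6 reads. The part of these cells in the higher level of ribosomal protein transcripts in Adherent was not tested.

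Of the other genes of the translation machinery, those whose mRNAs also carry a 5′ terminal oligopyrimidine tract lay nearest to the ribosomal proteins. The 15 that passed the minimum had median log2 ratios of 0.47 in Differentiating over Suspension, 1.12 in Adherent over Suspension and −0.77 in Differentiating over Adherent, and 10 of them (66.7%) were at least 2-fold higher in Adherent than in Suspension. RACK1, a scaffold on the head of the small subunit, was at 1318, 2816 and 955 CPM in Differentiating, Adherent and Suspension. TPT1, another gene of this list, was at 1679, 3000 and 1648 CPM and had a log2 ratio of 0.03 (0.01 to 0.05) in Differentiating over Suspension. PABPC1, the poly(A) binding protein, had a log2 ratio of 0.32 in Adherent over Suspension, below the limit that 10 of the list passed.

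The 11 elongation and release factors had medians of 0.20, 0.80 and −0.31 in the same comparisons. Of them, EEF1A1, EEF1B2, EEF1D and EEF2 are also in the list of oligopyrimidine genes. EEF1A1, which brings aminoacyl-tRNA to the ribosome, was at 9194, 11424 and 5462 CPM in Differentiating, Adherent and Suspension. EEF1A2, its form in adult muscle and nerve of mammals, was at 150.4, 1331 and 359 CPM, a log2 ratio of −3.15 (−3.20 to −3.09) in Differentiating over Adherent. EEF2K, the kinase that holds back EEF2, was highest in Differentiating, at 121, 60.6 and 31.4 CPM.

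The 33 initiation factors had medians of 0.03, 0.10 and −0.15, near those of all genes, with genes on either side. In Adherent over Suspension 6 (18.2%) passed the 2-fold limit upwards and 4 (12.1%) downwards, against 20.0% and 21.6% of all genes. Of the 6, EIF3E, EIF3F, EIF3H and EIF3L are also in the list of oligopyrimidine genes. EIF3E, a subunit of the factor that holds the small subunit at the start of translation, was at 428, 826 and 274 CPM in Differentiating, Adherent and Suspension, and EIF3F, of the same factor, at 229, 527 and 178 CPM. EIF4G1, the scaffold of cap binding, was at 471, 261 and 709.96 CPM, and EIF5B, which joins the subunits, at 745, 227 and 601 CPM. So EIF4G1 and EIF5B were lowest in the library in which the ribosomal proteins were highest.

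As lists, transcripts of the factors that assemble ribosomes did not share the ratios of ribosomal protein transcripts. The 36 large subunit assembly factors that passed the minimum had medians of −0.10, 0.02 and −0.16, and the 36 small subunit assembly factors −0.11, −0.12 and −0.11, in Differentiating over Suspension, Adherent over Suspension and Differentiating over Adherent. In Adherent over Suspension 3 of the large subunit factors (8.33%) were at least 2-fold higher and 2 (5.56%) lower, and of the small subunit factors 0 were higher and 5 (13.9%) lower, all below the shares of all genes. The 3 were NOL9, a nucleolar kinase that acts on ribosomal RNA ends, with 71.0, 254 and 85.3 CPM in Differentiating, Adherent and Suspension, NPM1, a chaperone of the nucleolus, with 1389, 1839 and 819.8 CPM, and DKC1, the pseudouridine synthase, with 243, 453 and 183 CPM. NOL9 differed from NPM1 and DKC1 in Differentiating over Suspension, where its log2 ratio was −0.27, against 0.76 and 0.41. NPM1 is also in the list of oligopyrimidine genes.

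The 9 ribosome binding partners had medians of −0.10, −0.28 and 0.41 in Differentiating over Suspension, Adherent over Suspension and Differentiating over Adherent. EIF6, which keeps free large subunits from joining small ones, was at 54.0, 23.6 and 58.0 CPM in Differentiating, Adherent and Suspension, and HABP4 at 9.03, 4.13 and 22.9 CPM. In Adherent over Suspension 2 partners (22.2%) were at least 2-fold higher and 3 (33.3%) lower, against 20.0% and 21.6% of all genes. The 2 higher ones were RACK1 and NACA, which are also in the list of oligopyrimidine genes.

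The ribosomes of mitochondria are built from other proteins. Of their genes 66 passed the minimum, with median log2 ratios of −0.08, −0.37 and 0.18 in Differentiating over Suspension, Adherent over Suspension and Differentiating over Adherent. In Adherent over Suspension 2 (3.03%) were at least 2-fold higher and 9 (13.6%) lower, both shares below the 20.0% and 21.6% of all genes. MRPS23, of the small mitochondrial subunit, was at 30.7, 60.4 and 27.9 CPM in Differentiating, Adherent and Suspension, and MRPL27, of the large one, at 30.0, 15.1 and 44.3 CPM. In CPM, the mitochondrial and cytosolic sets thus had medians of opposite sign in each comparison. In Differentiating over Suspension the mitochondrial median was small and, like the cytosolic one, lay above the −0.18 of all genes. It was not recomputed under other scalings. A scaling moves all ratios of a comparison alike, and the median of all genes there was 0.01 with median-of-ratios scaling. The opposite sign in this comparison therefore depends on the scaling.

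**Figure D5:**
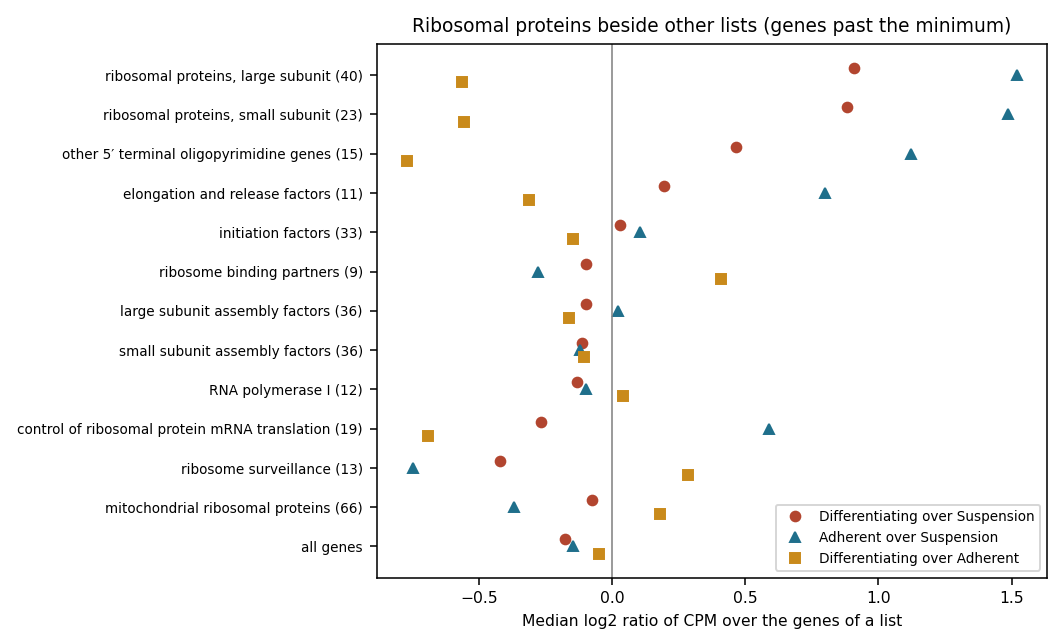
Median log2 ratio of CPM over the genes of each list (number of genes in brackets) in Differentiating over Suspension (circles), Adherent over Suspension (triangles) and Differentiating over Adherent (squares). The 2 ribosomal protein rows reach 0.91 and 0.88 for Differentiating over Suspension and 1.52 and 1.49 for Adherent over Suspension, and the assembly factors and RNA polymerase I lie near the median of all genes.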

How the data were processed

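RNA of cultured turkey satellite cells was sequenced as 3 libraries, 1 per culture. The authors name bcl2fastq 2.20, Skewer, STAR 2.5.2b, featureCounts and NOISeq. They aligned the reads to a turkey genome with Ensembl annotation. For the table, with its intron and junction reads, no source used here states these steps or that build. Deposited counts are unscaled reads per gene on exons, introns and whole genes. The deposited RPKM values divide counts by exon length and library size and were not used for any result. The deposited fold-change scores of the authors were used only to check the headings, over genes with at least 10 reads in both libraries and within 0.02 on the log2 scale.

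Exon counts were divided by the exon total of the library to give CPM, where 1 read is 0.0438, 0.0573 and 0.0419 CPM in Differentiating, Adherent and Suspension. Ratios used no pseudocount, and a count of 0 was set to a floor of 3 reads. The minimum was 5 CPM in at least 1 library and the limit 2-fold. Intervals of ratios and shares are exact (Clopper-Pearson, 95%), and those of levels are exact Poisson intervals (95%) of the counts. Python 3.11.15, numpy 2.4.6, pandas 2.3.3, scipy 1.17.1 and matplotlib 3.10.9 were used, and edgeR 4.0.16 in R 4.3.3 for TMM factors only. Scripts were tested on simulated data.

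Members and lists were chosen with earlier results of these data known. Values are given for stalk proteins, RPSA, RPS6, RPL5, RPL11, RPS27A, and paralogs with their main copies where these were matched. They are also given for the 4 highest and lowest members of each comparison and per length, and up to 2 of each list at either end. Other genes were named for their role, after their values were seen. Alternatives were other scalings, read types, minimums, limits, a pseudocount, the mean, subsets of members and exchanged headings. Single values of some listed genes are not reported here.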

Additional observations from a re-analysis of the deposited data

How the results depend on the processing

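Of 105 values recomputed under alternatives, 72 stayed within the spread set for them and the others moved. Exchanging the headings Suspension and Adherent changed the sign of all 3 medians. It turned the median in Adherent over Suspension to −1.52, with 0 members higher and 53 lower. It gave −0.56 in Differentiating over Suspension, with 0 higher and 2 lower, and 0.91 in Differentiating over Adherent, with 26 higher and 0 lower. In Differentiating over Suspension the median was 1.08 with TMM, 1.09 with median-of-ratios scaling and 0.95 with gene reads. The count of higher members was 39 with TMM, 42 with median-of-ratios scaling and 57 at a limit of 1.5-fold. Without a minimum 1 member, RPL3L, was lower. In Adherent over Suspension the median was 1.57 with the exon total without the members, 1.35 with gene reads and 1.42 as a mean. In Differentiating over Adherent it was −0.38 with TMM, −0.41 with median-of-ratios scaling, −0.38 with gene reads and −0.50 as a mean. There the count of lower members was 1 with TMM, 1 with median-of-ratios scaling, 0 with gene reads and 27 at a limit of 1.5-fold, which also gave 1 higher. The cause of these moves was not tested, and shares of all genes past the limit were not computed under the alternatives. The median over all genes was −0.01 with TMM and 0.01 with median-of-ratios scaling in Differentiating over Suspension, and 0.14 and 0.11 in Differentiating over Adherent. In Differentiating over Adherent RPL11 and RPL39 changed sign under both scalings, RPL19 and RPL9 under TMM, and RPL29 with the exon total without the members. Shares in Differentiating, Adherent and Suspension were 4.50%, 6.55% and 2.53% of unique exon reads, and 3.87%, 4.89% and 2.10% of gene reads. No paired analysis was possible because each culture has 1 library. No alternative can replace replicates, and the depth limits only genes as low as RPL3L.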

Other observations

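Further gene lists around the ribosome were read in the same way. The 19 genes for the control of ribosomal protein synthesis that passed the minimum had median log2 ratios of −0.27 in Differentiating over Suspension, 0.59 in Adherent over Suspension and −0.69 in Differentiating over Adherent. MYCN, a transcription factor that drives ribosome production, was at 1.93 CPM in Differentiating, 68.7 CPM in Adherent and 12.2 CPM in Suspension. EIF4EBP1, which holds back cap-dependent translation until mTOR phosphorylates it, was at 119, 671 and 126 CPM. TSC2, a brake on mTOR, was at 214 (Differentiating), 360 (Adherent) and 109.9 CPM (Suspension). These 3 genes (15.8% of the list) were at least 2-fold higher in Adherent than in Suspension and 0 were lower, against 20.0% and 21.6% of all genes.

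The 13 genes of ribosome surveillance had medians of −0.42, −0.75 and 0.28 in the same comparisons, with 1 (7.69%) at least 2-fold higher and 4 (30.8%) lower in Adherent over Suspension, against 20.0% and 21.6% of all genes. CDKN1A, the cell cycle inhibitor that p53 raises, was at 268 CPM in Differentiating, 27.2 CPM in Adherent and 228 CPM in Suspension, and MDM4, a partner of MDM2, at 178, 365 and 171 CPM. The 12 genes of RNA polymerase I, which makes ribosomal RNA, had medians of −0.13, −0.10 and 0.04, near those of all genes. Of these, TAF1D was at 47.8, 96.0 and 34.6 CPM and TCOF1, the treacle protein, at 242, 214 and 432 CPM in Differentiating, Adherent and Suspension.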
